A study of Mus musculus with 4 samples.

Results

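The nucleoporin genes were taken from the count table by name, as genes whose symbol in the mouse annotation GENCODE vM21 (genome build GRCm38) is Nup followed by a digit, together with Pom121, Ndc1, Tpr, Aaas, Rae1, Seh1l, Sec13, Ranbp2, and Ahctf1. In that annotation Nup58 is still listed as Nupl1 and Nup42 as Nupl2. The choice gave 32 of the 21936 genes of the table. The rule went by symbol alone, but this group of genes was chosen with earlier results of these data known. All 32 passed the filter on low counts, with Nup58 passing only through its TSSK2-IP values. The libraries came from germ cells of adult C57BL/6 mouse testes, which were cross-linked with paraformaldehyde, lysed, and sonicated. The pellet was then immunoprecipitated with an anti-TSSK2 antibody (TSSK2-IP, 2 libraries) or, as a negative control, with mouse IgG (control IgG-IP, 2 libraries), and all the animals belonged to this 1 strain. TSSK2 is a testis-specific serine kinase found in the late-CB, the form that the chromatoid body takes in elongating spermatids, and the comparison asked which mRNAs came down with it. The sources do not say whether the 2 libraries of a group came from separate animals, so the p-values measure only the spread between these samples.

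The nuclear pore complex is the channel through which RNA and protein cross the nuclear envelope, and nucleoporins are its building blocks. An inner ring and outer rings made of the Y complex form the scaffold, transmembrane nucleoporins hold it in the membrane, and central channel nucleoporins, rich in phenylalanine-glycine repeats, line the passage. Filaments on the cytoplasmic face take part in the last steps of mRNA export, and a basket extends into the nucleus. In spermatids the nucleus condenses and elongates, and the pores are known to be lost from the envelope under the acrosome. In a mixed germ cell preparation, fewer cells of a type and less RNA per cell cannot be told apart.

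Of the 32 nucleoporin genes, only Nup58 passed both thresholds, which were a change of 1 or more on the log2 scale and an adjusted p no higher than 0.05 (edgeR, quasi-likelihood test, Benjamini-Hochberg adjustment over all genes tested). This 1 gene was 3.12% of the members, beside 0.693% of the 14722 genes tested that were called higher. Called lower were 0 members, against 0% of the genes tested. Because Nup58 passed the filter on low counts only through its TSSK2-IP values, these shares do not measure an excess of calls among nucleoporins. With the DESeq2 test 0 members were called in either direction, 29 genes were called higher, and 9 were called lower. DESeq2 gave no adjusted p for several members, so these could not be called. Nup58 was among them, with a DESeq2 log2 fold change of 3.65. With upper-quartile normalization the adjusted p of Nup58 was 0.180 (edgeR, Benjamini-Hochberg), and its call was lost. The gene entry that carries the name Nup58 in the count table, however, is annotated as a readthrough transcript that runs past the end of the Nup58 gene, and a neighbouring entry, Gm49336, holds most of the exons that RefSeq assigns to Nup58. Gm49336 did not pass the thresholds, and neither did the sum of both entries, which consists mostly of Gm49336 counts. The median log2 fold change of the other 31 nucleoporins was -0.44, and all but Ranbp2 of the 10 most abundant were highest in control IgG-IP replicate 1.

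Nup58 is a central channel nucleoporin that forms a complex with Nup54 and Nup62. The Nup58 entry (ENSMUSG00000063895) lies on the minus strand at chr14:60184612-60251431 of GRCm38. It has 1 annotated transcript with 16 exons and 3602 exon bases, and this transcript is tagged as readthrough and as a target of nonsense-mediated decay, the pathway that removes mRNAs with early stop codons. The first 14 of its exons, 1756 bases or 48.8% of its length, lie entirely within exons of Gm49336 (ENSMUSG00000114797, chr14:60205282-60251507), a protein-coding gene on the same strand whose start site is 76 bases away. Its last exons share 241 bases with Atp8a2, a phospholipid flippase gene that lies downstream on the same strand. The remaining 1605 bases, chr14:60184612-60186216, belong to no other counted gene. They lie in the 3′ UTR of exon 16, and 0 of them are in a RefSeq Nup58 exon. RefSeq places Nup58 at chr14:60205284-60251479, with 3 mRNAs and 5985 exon bases, of which 29.3% are in the Nup58 entry and 95.6% in Gm49336. The stretch that only the Nup58 entry holds begins 19067 bases beyond the end of the RefSeq gene.

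The sequences at the point of divergence show how the annotated transcripts part. The shared sequence is exon 14, chr14:60221583-60221678, read 5′ to 3′ on the minus strand of GRCm38, and it is the last stretch that the Nup58 entry, Gm49336, and RefSeq Nup58 have in common. It is followed by the first 30 bases that come after it in 4 annotated transcripts, with an annotated stop codon in capitals where one lies within those bases.
exon 14 shared by the Nup58 entry, Gm49336, and RefSeq Nup58: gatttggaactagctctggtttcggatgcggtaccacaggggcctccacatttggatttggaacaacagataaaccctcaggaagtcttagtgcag
readthrough transcript of the Nup58 entry, chr14:60186722-60186751: gtTAAaggagaaaacttactccctgtggcc
Gm49336 transcript with the longest coding end, chr14:60220129-60220158: gctttggcagctcaagtacgtctgggttta
Gm49336 transcript that ends farthest downstream, chr14:60205923-60205952: gccaaaagtcacatgttttaactggatttc
Gm49336 transcript that reads on past the splice site, chr14:60221553-60221582: gtttgtgtgcttctgccTGAactccaggca
In the readthrough transcript the exon is joined to an Atp8a2 exon, and the stop codon begins at base 3 after the junction. In the 3 Gm49336 transcripts it begins at base 168, base 81, and base 18, respectively. Nup58 was the only one of the 32 members with a readthrough transcript, and the only one of which 0% of the unshared exon bases were in RefSeq exons of the same gene. For the other members this share was between 30.5% and 100%, and at most 4.6% of their exon bases were shared with another counted gene on the same strand.

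**Figure D1:**
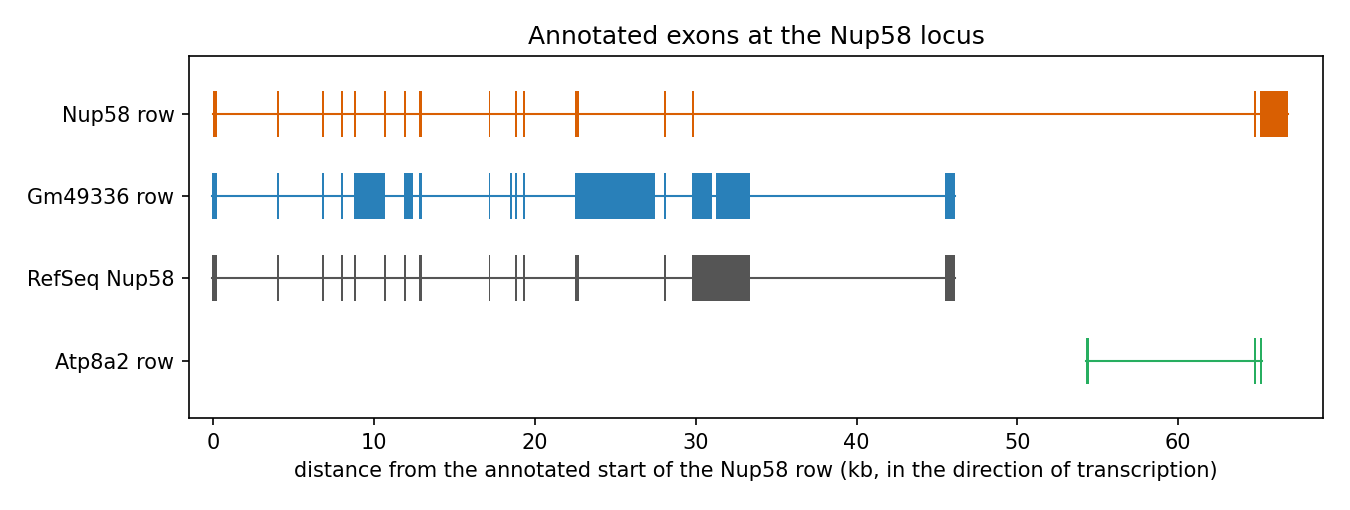
Annotated exons at the Nup58 locus, plotted by distance in kb from the start of the Nup58 entry in the direction of transcription. Boxes are exons merged over transcripts and lines join them; for Atp8a2 only the exons inside this window are drawn. The Nup58 row shares its first 14 exons with Gm49336 and RefSeq Nup58 and ends in exons far downstream of both.

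The Nup58 entry had 43 and 49 counts in TSSK2-IP and 3 and 4 counts in control IgG-IP, replicates 1 and 2 in each case. After normalization these were 8.91 and 9.32 CPM (counts scaled to a common library size with edgeR's TMM factors) in TSSK2-IP and 0.468 and 0.919 CPM in control IgG-IP. Both TSSK2-IP libraries thus lay above both control libraries and were close to each other. The group means were 9.12 ± 0.290 and 0.694 ± 0.319 CPM (SD, n = 2 each). The log2 fold change was 3.73 with a standard error of 0.75, which corresponds to a 13.2-fold difference, and the adjusted p was 0.0348 (edgeR, Benjamini-Hochberg). From the summed counts of each group, 92 against 7, the depth-scaled ratio was 14 with an exact 95% interval from 6.54 to 35.9, which covers counting error only. Because the entry passed the filter on low counts only through its TSSK2-IP values, this interval is a description and not support. The call was lost when either TSSK2-IP library was left out and kept when either control library was left out. In each of these fits 1 group had a single library and no spread of its own. The log2 fold change stayed between 3.33 and 4.15 whichever single library was left out. A two-sided exact permutation test of 2 libraries against 2 cannot go below p = 0.333.

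Gm49336 had 316 and 350 counts in TSSK2-IP and 455 and 164 counts in control IgG-IP. These were 65.5 and 66.6 CPM in TSSK2-IP and 71.0 and 37.7 CPM in control IgG-IP. The TSSK2-IP values lay between the control values, so the groups overlapped. The log2 fold change was 0.28 with a standard error of 0.43 (adjusted p = 0.798, edgeR, Benjamini-Hochberg). The Nup58 entry took 12% of the summed counts of Nup58 and Gm49336 in TSSK2-IP replicate 1 (exact Clopper-Pearson 95% interval 8.81% to 15.8%) and 12.3% in replicate 2 (9.23% to 15.9%). In control IgG-IP its share was 0.655% in replicate 1 (0.135% to 1.90%) and 2.38% in replicate 2 (0.652% to 5.98%). The share was higher in each TSSK2-IP library than in each control library. The intervals cover counting error only, and the control shares rest on 3 and 4 counts of an entry that passed the filter through its TSSK2-IP values. When both entries were added up as 1 gene, an alternative chosen after seeing the data, TSSK2-IP had 75.2 ± 1.06 CPM and control IgG-IP 55.0 ± 23.2 CPM (SD, n = 2 each). The log2 fold change of the sum was 0.45 with a standard error of 0.43 (adjusted p = 0.656, edgeR, Benjamini-Hochberg), and the call of Nup58 was lost.

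Neither of the other counted genes at this locus passed the thresholds. Atp8a2 had 530 and 605 counts in TSSK2-IP and 1200 and 553 in control IgG-IP, and its log2 fold change was -0.48 (adjusted p = 0.661, edgeR, Benjamini-Hochberg). Mtmr6, a phosphoinositide phosphatase gene 13797 bases upstream on the opposite strand, had 1039 and 1074 counts in TSSK2-IP and 5740 and 1129 in control IgG-IP. Its log2 fold change was -1.46 (adjusted p = 0.389, edgeR, Benjamini-Hochberg), and in both genes control IgG-IP replicate 1 was the highest library. The sources used here do not state whether reads that overlap 2 genes were dropped, split, or counted for each, nor which strand setting the counting used. With these gene models, if such reads were dropped, the Nup58 entry could count single reads only within its own 1605 bases. The libraries were sequenced as read pairs, and the sources do not state whether the reads of a pair were counted together. How the counts are spread over the exons cannot be read from a table of totals per gene.

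**Figure D2:**
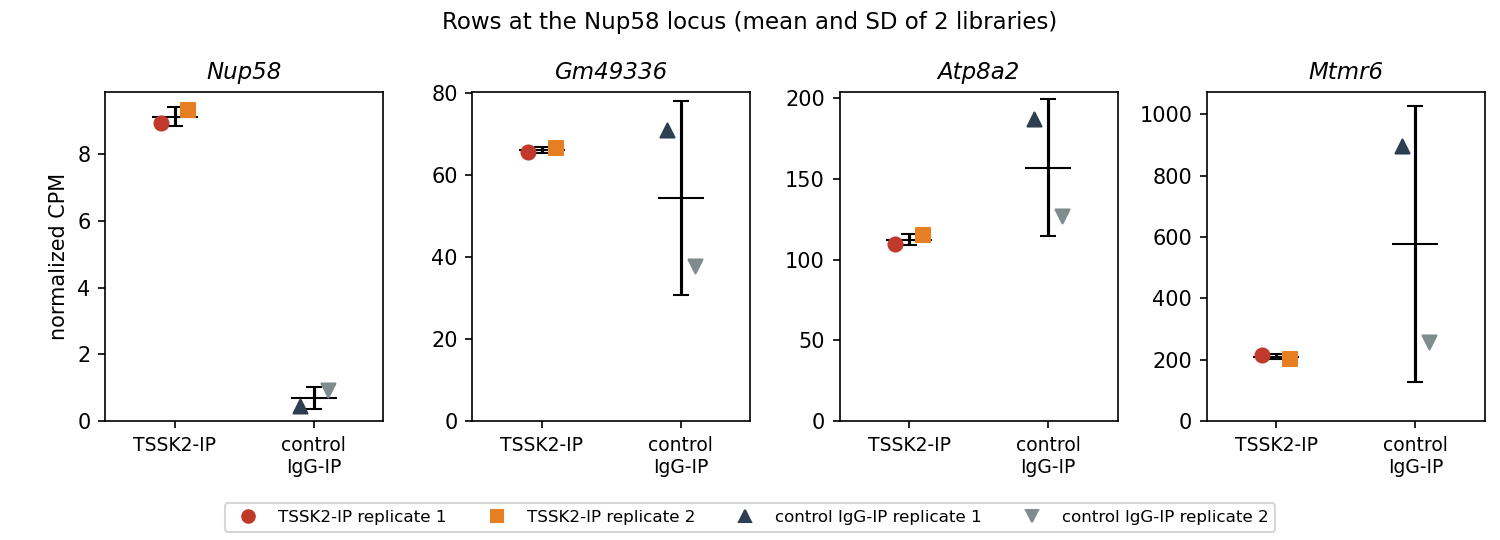
Normalized CPM of Nup58 and of the counted genes that overlap it or lie within 50 kb. Symbols are libraries, horizontal bars the mean and vertical bars the SD of 2 libraries, and each panel has its own axis from 0. Both TSSK2-IP libraries lie above both controls for Nup58 (8.91 and 9.32 against 0.468 and 0.919), whereas the groups overlap for Gm49336.

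None of the other 3 central channel genes passed the thresholds. Nup62, the channel component that assembles with Nup54 and Nup58, had 126 and 123 CPM in TSSK2-IP and 251 and 113 CPM in control IgG-IP. The groups overlapped, since the TSSK2-IP values lay between those of the controls. The log2 fold change was -0.54 with a standard error of 0.52 (adjusted p = 0.656, edgeR, Benjamini-Hochberg), or 0.20 once control IgG-IP replicate 1 was left out. Nup54 had 14.3 and 9.70 CPM in TSSK2-IP and 11.7 and 9.42 CPM in control IgG-IP, a log2 fold change of 0.18 with overlapping groups. Nup62cl, a Nup62-like gene on the X chromosome, was close to the detection limit, with between 7 and 15 counts in the 4 libraries.

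In the inner ring, which ties the scaffold to the membrane and the channel, the genes went in both directions. Nup188, a large scaffold nucleoporin, had 186 and 173 CPM in TSSK2-IP and 816 and 277 CPM in control IgG-IP. Both TSSK2-IP values were below both control values, but the controls themselves were 1.56 apart on the log2 scale. The log2 fold change of -1.61 (standard error 0.68) was the lowest of all members, and the adjusted p was 0.343 (edgeR, Benjamini-Hochberg). Nup205, its close relative, had 423 and 393 CPM against 1270 and 489 CPM, in the same order of libraries. Nup155, a scaffold nucleoporin that contacts the membrane, had 131 and 120 CPM in TSSK2-IP and 80.4 and 92.6 CPM in control IgG-IP. Here both TSSK2-IP values were above both controls, with a log2 fold change of 0.54 and a standard error of 0.44 (adjusted p = 0.589, edgeR, Benjamini-Hochberg). Nup93, the organizer of the inner ring, also lay above both controls, at 25.3 and 24.7 CPM against 17.3 and 20.0 CPM. Nup35 overlapped between the groups. The median log2 fold change of the 5 inner ring genes was 0.23.

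The Y complex builds the outer rings and includes Sec13 and Seh1l, which also serve in other complexes. Seh1l had 23.4 and 37.5 CPM in TSSK2-IP and 8.27 and 18.4 CPM in control IgG-IP. Both TSSK2-IP values exceeded both control values, though the libraries of each group were well apart. Its log2 fold change of 1.20 (standard error 0.47) was the next highest after Nup58, and it did not pass the test (adjusted p = 0.313, edgeR, Benjamini-Hochberg). Sec13, which is also a coat protein of vesicles leaving the endoplasmic reticulum, had 15.3 and 20.2 CPM in TSSK2-IP and 57.7 and 26.2 CPM in control IgG-IP. The TSSK2-IP values were both lower, and the log2 fold change was -1.24 with a standard error of 0.45 (adjusted p = 0.282, edgeR, Benjamini-Hochberg). Ahctf1, also called ELYS, which recruits the Y complex to chromatin, had 502 and 521 CPM against 1180 and 593 CPM, and Nup133 had the same order of libraries. The scaffold genes Nup107, Nup160, Nup37, Nup43, and Nup85 had log2 fold changes between -0.13 and 0.16, and in all 5 the groups overlapped. The median of the 9 Y complex genes was -0.07, or 0.18 once control IgG-IP replicate 1 was left out.

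Among the 7 genes of the cytoplasmic face, Nup98 had the highest CPM in each library. It had 793 and 738 CPM in TSSK2-IP and 2470 and 958 CPM in control IgG-IP, with a log2 fold change of -1.16. Nup98 protein takes part in mRNA export and binds Rae1, whose own mRNA had 34.0 and 30.1 CPM against 50.6 and 37.0 CPM. Nup88, which anchors Nup214 and Nup98 to the cytoplasmic side, had 114 and 119 CPM in TSSK2-IP and 318 and 142 CPM in control IgG-IP. In these 3 genes both TSSK2-IP values were below both controls, and for Nup88 the log2 fold change was -0.98 with a standard error of 0.54 (adjusted p = 0.430, edgeR, Benjamini-Hochberg). Ranbp2, the main protein of the cytoplasmic filaments and a SUMO ligase that binds Ran, was nearly level. It had 483 and 564 CPM in TSSK2-IP and 445 and 467 CPM in control IgG-IP, so that both TSSK2-IP values were the higher ones, and its log2 fold change was 0.20 with a standard error of 0.64 (adjusted p = 0.914, edgeR, Benjamini-Hochberg). Nup214, Nup42, and Aaas, the gene mutated in triple A syndrome, had log2 fold changes from -0.74 to -0.11 and overlapping groups. The median of the 7 genes was -0.45, or -0.03 once control IgG-IP replicate 1 was left out.

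The transmembrane nucleoporins Pom121, Ndc1, Nup210, and Nup210l, a Nup210 paralogue, had a median log2 fold change of -0.47, or 0.04 once control IgG-IP replicate 1 was left out. Nup210l had 164 and 161 CPM in TSSK2-IP and 415 and 166 CPM in control IgG-IP. The TSSK2-IP values were lower than both controls, but by very little against replicate 2. Its log2 fold change was -0.84 with a standard error of 0.59 (adjusted p = 0.522, edgeR, Benjamini-Hochberg), or 0.02 once control IgG-IP replicate 1 was left out. Nup210 itself was scarce, with 12.4 and 7.42 CPM in TSSK2-IP and 9.21 and 17.9 CPM in control IgG-IP. Per kilobase of exon, Nup210l averaged 39.6 CPM over the 4 libraries and Nup210 1.12 CPM, and the lowest Nup210l library was above the highest Nup210 library.

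The nuclear basket was the subcomplex in which all 3 genes lay below both controls, beside 21.6% of all genes tested. Tpr, the filament protein of the basket, had 132 CPM in both TSSK2-IP libraries and 437 and 182 CPM in control IgG-IP. Its log2 fold change was -1.23 with a standard error of 0.58 (adjusted p = 0.382, edgeR, Benjamini-Hochberg). Nup153, which attaches Tpr to the pore, had 452 and 459 CPM against 1250 and 515 CPM. Nup50, which helps to release import cargo, had 131 CPM in both TSSK2-IP libraries and 345 and 157 CPM in control IgG-IP. The median of the 3 genes was -0.95, or -0.21 once control IgG-IP replicate 1 was left out.

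**Figure D3:**
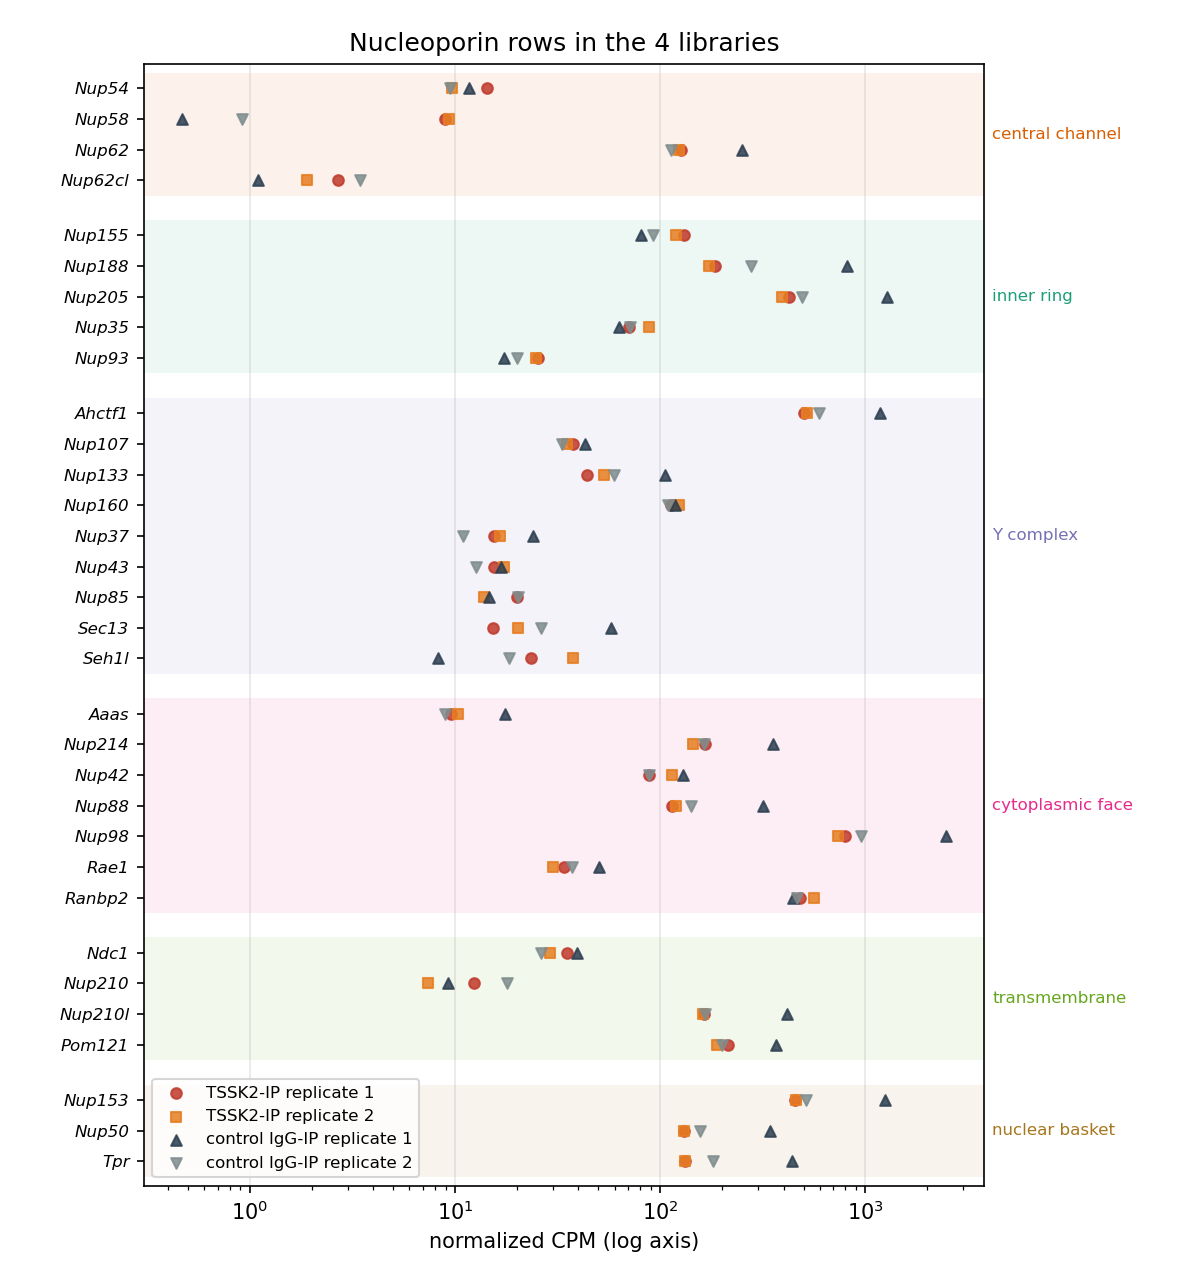
Normalized CPM (log axis) of the 32 nucleoporin genes in each of the 4 libraries, grouped by subcomplex. The circles and squares of TSSK2-IP lie close together in nearly every row, the dark triangles of control IgG-IP replicate 1 stand to the right of the other libraries in most abundant genes, and Nup58 is the gene in which both control libraries stand far to the left.

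Set beside all genes tested, the nucleoporins leaned to the lower side. Their log2 fold change was below 0 in 22 of 32 genes (68.8%), against 50.8% of all genes tested, and their median was -0.43 against -0.02. At an unadjusted p under 0.05, 2 members were higher (Nup58 and Seh1l, 6.25%, against 8.34% of all genes) and 2 were lower (Sec13 and Nup188, 6.25%, against 4.89%). In 5 members the TSSK2-IP values were both higher than both control values, Nup58, Nup155, Nup93, Ranbp2, and Seh1l (15.6%, against 27.3% of all genes). They were lower than both controls in 12 members (37.5%, against 21.6%), and the groups overlapped in 15. Every TSSK2-IP value was 2-fold or more above every control value for 1 member, Nup58, and for 4.01% of all genes tested. Other scalings moved all genes as well. With DESeq2's size factors 24 members and 56.7% of all genes were below 0, with medians of -0.56 and -0.14, and with upper-quartile normalization 23 members and 53.1% were below 0.

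**Figure D4:**
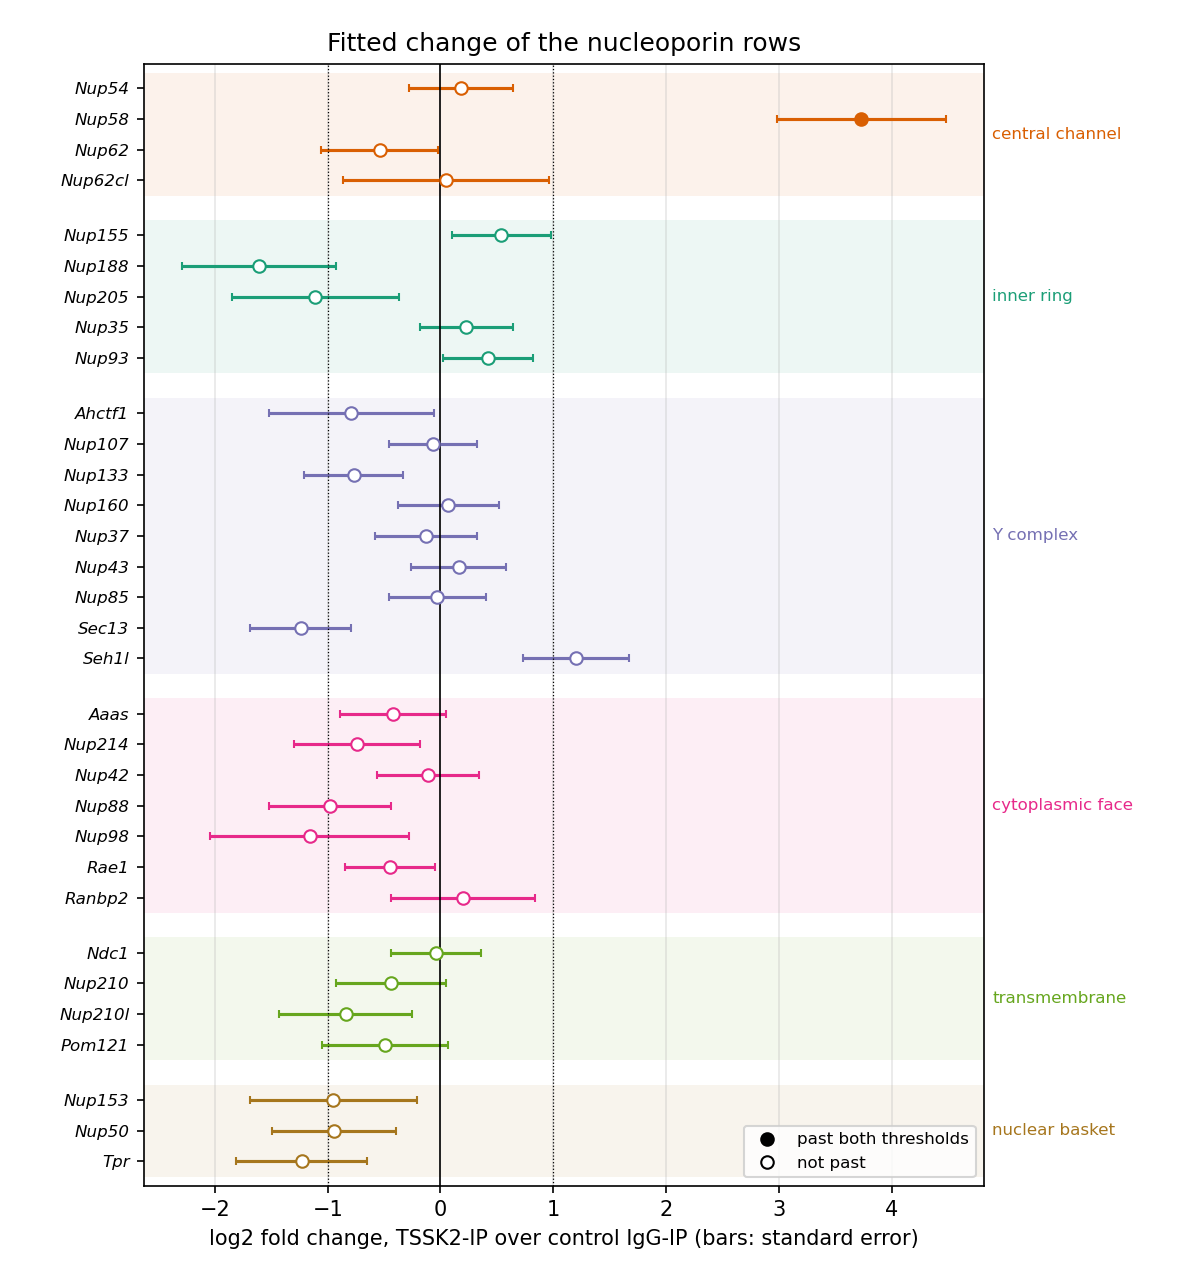
Log2 fold change of TSSK2-IP over control IgG-IP for the 32 nucleoporin genes, with standard errors from edgeR as bars and dotted lines at 1 and -1. Only Nup58, at 3.73, is filled as past both thresholds; the other genes lie between -1.61 and 1.20.

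The lower values of the nucleoporins rested largely on 1 control library. The TSSK2-IP libraries agreed well, with log2 differences between replicates from -0.67 to 0.72 and an SD of 0.29 over the members. The control IgG-IP libraries were at least 2-fold apart for 14 members (43.8%, against 40.8% of all genes tested), with replicate 1 the higher in 12 of them. The direction was not that of all genes. The log2 difference, replicate 1 over replicate 2, had a median of 0.71 over the members and -0.15 over all genes tested. In all 12 members below both controls, replicate 1 was the higher control. The median log2 fold change of these 12 was -0.96. It became -0.22 when replicate 1 was left out and -1.52 when replicate 2 was left out. Over all 32 members the median was 0.04 without replicate 1 and -0.68 without replicate 2. Over all genes tested it was 0 without replicate 1 and 0.16 without replicate 2. In these fits the single control library was assumed to vary like the TSSK2-IP libraries. The 5 members above both controls stayed above 0 whichever control was left out. This follows nearly by construction from their being above both controls, and adds no support. Control IgG-IP replicate 1 had 9858941 counts, against 3938922 to 4491749 in the other 3 libraries, and the nucleoporins took 0.697% of its counts, against 0.534% to 0.563%. These shares are of unscaled counts. The TMM factor of control IgG-IP replicate 1 was 0.652, against 1.117 to 1.177 in the others. A lower factor raises every normalized CPM of that library. Over all genes tested, however, its scaled values were in the median not above those of replicate 2, with a log2 difference of -0.15. The part of the scaling in the nucleoporin values was not tested. The summed CPM of 8 spermatid markers was 10500 in that library and 4060 to 5240 in the others, and the sum of 6 spermatocyte markers was 4290 against 1310 to 1690. These sums were carried by a few genes, Akap4 (5880 against 1150 to 1820) and Prm2 (2790 against 1100 to 1690) among the spermatid markers and Hspa2 (2360 against 491 to 754) and Pgk2 (1250 against 290 to 401) among the spermatocyte markers. The other 6 spermatid markers summed to 1830 in that library and 1720 to 1860 in the others, with Tnp1 and Acrv1 lowest there, and the other 4 spermatocyte markers to 683 against 518 to 589. The sum of 6 Sertoli cell markers was lowest there, at 8.74 against 18.3 to 30.1, as was that of 6 Leydig cell markers, at 16.1 against 35.8 to 38.4, with Insl3 at 0 counts. The sum of 6 spermatogonium markers was between 33.1 and 53.5 CPM, and that of 6 peritubular, endothelial, and immune markers between 53.4 and 97.0 CPM. The sample labels name only testis. The germ cell preparation that the paper describes was met in all 4 libraries by high spermatid and spermatocyte markers. The part of the marker differences in the nucleoporin values was not tested.

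**Figure D5:**
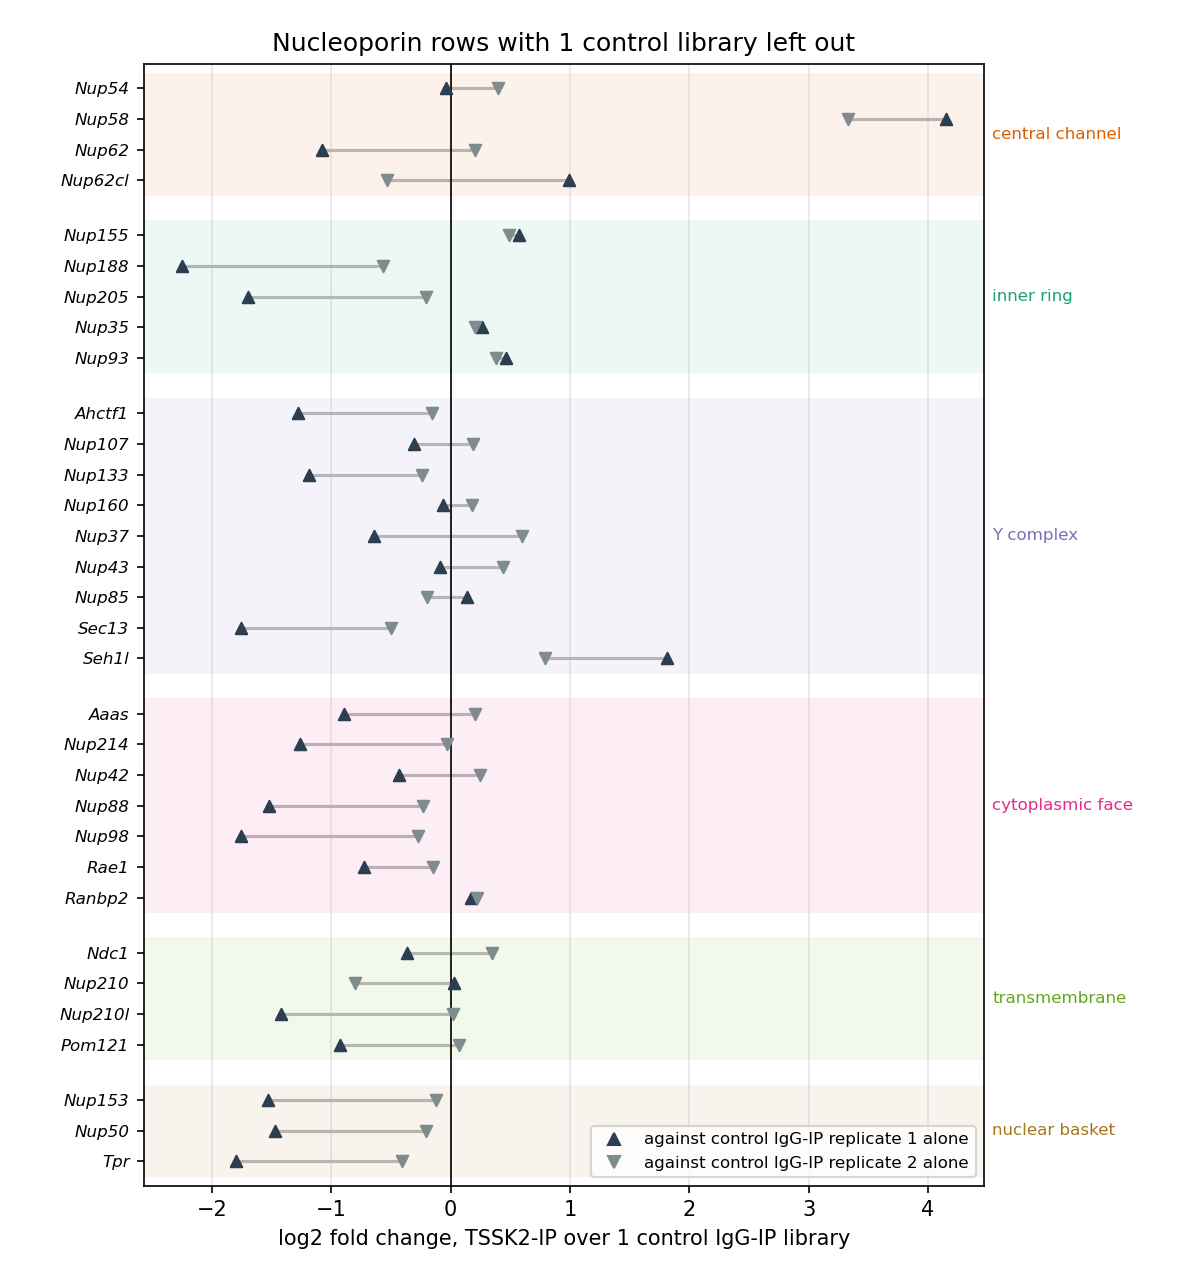
Log2 fold change of each nucleoporin gene when TSSK2-IP is compared with only 1 control IgG-IP library. Against replicate 1 alone (dark triangles) most genes lie below 0, with a median of -0.68; against replicate 2 alone (grey triangles) they spread around 0, with a median of 0.04. Nup58 stays above 3 in both.

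Levels were compared between members as mean CPM per kilobase of exon over the 4 libraries. Nup98 (98.4), Nup153 (95.3), and Nup205 (69.1) were highest and Nup62cl (1.02), Nup210 (1.12), and Nup58 (1.36) lowest. Nup98 and Nup153 did not differ beyond their spread over libraries, with 58.6 to 196 for Nup98 and 64.3 to 178 for Nup153. The 10 most abundant members other than Nup58 had a median of -0.89 for the log2 fold change. Of these, 7 lay below both controls, beside 21.6% of all genes tested. The 10 least abundant had a median of 0.01, and 0 of them lay below both controls. With 10 genes, 0 is not far from that share. The log2 difference between the control libraries, replicate 1 over replicate 2, had a median of 1.21 in the abundant and 0.05 in the scarce genes. Spearman's rho between level and log2 fold change was -0.57 over 31 genes, given as a description because both quantities come from the same libraries. Without control IgG-IP replicate 1, rho was -0.18, and the medians were -0.14 and 0.36.

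The other genes of nuclear transport showed 0 calls in either direction with edgeR. At an unadjusted p under 0.05, 2 importins or exportins were lower, 1 mRNA export gene was higher and 1 lower, 1 lamina or LINC gene was higher, and 0 Ran cycle genes passed, beside 8.34% of all genes tested that were higher and 4.89% that were lower. Of 24 importins and exportins, the carriers that pass through the pore, 19 had a log2 fold change below 0, beside 50.8% of all genes tested, with a median of -0.62. Ipo4, an importin, had the smallest p among them, with 74.6 and 69.6 CPM in TSSK2-IP and 355 and 123 CPM in control IgG-IP and a log2 fold change of -1.73 (adjusted p = 0.257, edgeR, Benjamini-Hochberg). In the other direction Kpna7 had 0.54. The control libraries were at least 2-fold apart for 13 of the 24 importins and exportins. Their log2 difference, replicate 1 over replicate 2, had a median of 1.09 over these 24 genes. The 8 genes of the Ran cycle, which gives transport its direction, were split evenly, with a median of -0.17, from -1.23 for Ran to 1.22 for Nutf2, the import factor of Ran. Among the 23 mRNA export genes tested of 25 listed, 16 were above 0 and the median was 0.23. Ddx39a, an RNA helicase of the export machinery, had 84.0 and 78.0 CPM in TSSK2-IP and 42.4 and 38.8 CPM in control IgG-IP, a log2 fold change of 0.99 (adjusted p = 0.327, edgeR, Benjamini-Hochberg), while Thoc5, a subunit of the THO complex, had -1.62. The 19 genes of the lamina and of the LINC complex, which joins the nuclear envelope to the cytoskeleton, had a median of -0.03, between Lemd2 at 0.97 and Lmna at -0.69 for the smallest p in each direction.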

How the data were processed

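RNA from 2 TSSK2-IP and 2 control IgG-IP samples was sequenced from directional libraries without rRNA removal. Per the submitters' processing notes, the authors used Trimmomatic 0.39, STAR 2.7.10a, and featureCounts 2.0.3 with the genome build GRCm38, and the deposited values are whole-number counts of reads for each gene, not normalized. The total was between 3938922 and 9858941 counts per library, and 1 count was worth 0.156 to 0.230 CPM. Of the 21936 gene identifiers, 21817 matched GENCODE vM21 and 119 did not. The study mapped to a later Ensembl release of the same build, which was not used here, so the gene models of vM21 may differ from those counted. RefSeq models and the printed sequences were read from GRCm38.

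The counts were fitted with edgeR 4.0.16 in R 4.3.3 (TMM, filterByExpr, glmQLFit, and glmQLFTest, 14722 genes tested, common dispersion 0.135) over all 4 libraries without covariates, the groups and thresholds being those of the study's own comparison. Adjustment was over all genes tested. The fit was tried on simulated data with a lower dispersion than in these libraries, which does not measure its error rate here. Normalized values are CPM with TMM factors, per kilobase of merged exon where stated. The alternatives were DESeq2 1.42.0, its size factors, upper-quartile normalization, other filters on low counts, removal of Lars2, mitochondrial, and small RNA genes, the replicate number as a block, and leaving out each library. Full statistics are given for Nup58 and for the member with the smallest p in each direction within each subcomplex, and library values also for the 3 members highest per kilobase. Further members were named with values after these had been seen. Of each transport list, the genes named are those of smallest p among higher and among lower genes. The members, lists, and markers were chosen with earlier results of these data known. DDX4-IP libraries were not used here.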

Additional observations from a re-analysis of the deposited data

How the results depend on the processing

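The number of genes called higher, 102, was 29 with at least 10 counts in every library, 29 with the DESeq2 test, 283 without a filter on low counts, 20 with upper-quartile normalization, and 23 to 2755 with 1 library left out. The number called lower, 0, was 9 with the DESeq2 test, 24 without a filter, and 0 to 2688 with 1 library left out. The number of nucleoporin genes called higher, 1, was 0 with at least 10 counts in every library (where Nup58 was not tested), 0 with the DESeq2 test (which gave Nup58 a log2 fold change of 3.65 and no adjusted p), 0 with upper-quartile normalization, and 0 to 2 with 1 library left out. It was 0 without TSSK2-IP replicate 1 or replicate 2. Without control IgG-IP replicate 2 it was 2 of 32 members, beside 2755 of 15406 genes tested, so it rose with the calls among all genes. The number called lower was 0 to 13, with 13 (40.6%, against 17.4% of all genes tested) without control IgG-IP replicate 2. In that fit the control group had a single library and no spread of its own, so these calls are only a description. Nup58 had a log2 fold change of 3.69 with upper-quartile normalization, where the adjusted p was 0.180 (edgeR, Benjamini-Hochberg), of 3.33 to 4.15 with 1 library left out, and of 0.45 when summed with Gm49336. The median over the nucleoporins was -0.68 to 0.04 with 1 library left out. With 1 library left out, Nup210l ranged from -1.42 to 0.02 and Nup62 from -1.08 to 0.20, both turning positive without control IgG-IP replicate 1. The cause was not tested.

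The samples share only a replicate number, and the deviations of same-numbered samples from their group means had a correlation of 0.19 over genes. With the replicate number as a block, 274 genes were called higher and 3 lower, and Nup58 kept its log2 fold change of 3.73 (adjusted p = 0.00143, edgeR, Benjamini-Hochberg). Depth limits the Nup58 entry, with 3 and 4 counts in the control libraries, and Nup62cl, with 7 to 15 counts in a library.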
